A study of Homo sapiens with 24 samples.

Results

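The m6A peaks of GATA4 and GATA6 were described in 6 cell populations derived from MEL1, an established human embryonic stem cell line. The study's methods give it as MEL1 INSGFP/W, which carries a GFP reporter in 1 allele of the insulin gene, so that all populations share this edit. In m6A-seq, fragmented RNA is pulled down by an antibody that binds N6-methyladenosine (IP) and sequenced beside the fragments taken before that step (input). A methylated stretch of a transcript then stands out as a peak of IP over input. Peaks were assigned by gene identifier, ENSG00000136574 for GATA4 and ENSG00000141448 for GATA6. The rule found 34 peaks, 23 of GATA4 and 11 of GATA6, among the 228472 peaks of all 27200 genes in the 6 lists. Undifferentiated cells (hPSC), their definitive endoderm (DE), the pancreatic progenitors (PP) made from it and the islet-like organoids (hILO) at the end of the series formed the labelled batch 1, in which mRNA and a SYSY antibody were used. Wild-type pancreatic progenitors (WT PP) and progenitors lacking ALKBH5, an enzyme that removes m6A (A5-KO PP), formed batch 2, in which total RNA, a Millipore antibody and another library kit were used and ribosomal RNA was depleted from the input. The labels give no genotype for the batch 1 populations. The knockout was made in the same MEL1 line with CRISPR-Cpf1 guides against the first exon of ALKBH5, and edited colonies were picked, so that the knockout stands for clonal lines. The 24 libraries were 2 of IP and 2 of input for each population, with 1 list deposited per population. No list held a value per library, so that no comparison below has a replicate check and none was tested.

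GATA4 and GATA6 are zinc finger transcription factors that bind the GATA motif and open chromatin in the early endoderm. They act in definitive endoderm and again in the pancreatic bud, where loss of either gene in humans is known to impair formation of the pancreas. Within the pancreas, GATA4 becomes restricted to the acinar lineage, while GATA6 persists in parts of the endocrine lineage. m6A is laid down mostly in the DRACH motif (where D stands for any base but C, R for a purine and H for any base but G), often in long exons and around stop codons, and ALKBH5 removes it.

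Neither gene had a peak in hPSC, both had 4 peaks in DE, and from there their lists differed. GATA4 had 5 peaks in PP, 4 each in hILO and WT PP, and 6 in A5-KO PP. GATA6 had 2 peaks each in PP, hILO and WT PP, while A5-KO PP had 1. Of all genes with a peak in DE, 13.1% had none in hPSC. Having 4 or more peaks was common, at 23.4% of genes with a peak in DE, 22.6% in hILO and 32.1% in WT PP. For the GATA4 counts in the other lists, 14.8% of genes with a peak in PP had 5 or more and 13.9% of those in A5-KO PP had 6 or more. An absent peak means that no stretch passed the peak caller, which does not separate an unmethylated transcript from one with too few reads. In these bulk samples fewer cells of a type and less RNA per cell cannot be told apart.

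The 11 GATA6 peaks fell into 5 regions when peaks sharing an exonic base were joined, numbered here from the 5′ end (GRCh38, chromosome 18, plus strand). Region 1 was seen in PP alone, at chr18:22169589-22171013, and joined the first exon with the start of an alternative first exon. Region 2 lay just upstream of the start codon, at chr18:22171064-22171138 in DE, and was shorter in WT PP. Region 3 was a stretch of 250 nt in the coding sequence of the long exon 2, at chr18:22171389-22171638, in DE alone. Region 4 ran over the junctions of exons 4, 5 and 6, inside the coding sequence, in DE, PP and hILO. Region 5 lay in the 3′ UTR, at chr18:22200855-22201529 in DE, and was listed in DE, hILO, WT PP and A5-KO PP. It began 32 nt after the stop codon in 3 of these lists and 68 nt before the end of the stop codon in WT PP.

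The peaks of region 4 are printed because they are nested and share 1 end, with bases of GRCh38 joined across introns, 5′ to 3′, and DRACH motifs in capitals. This stretch encodes the end of the second zinc finger and the basic residues that follow it. The hILO peak (150 nt) had 34 nt of exon 4, the 88 nt of exon 5 and 28 nt of exon 6, and held 7 DRACH motifs. The DE peak (125 nt) began 25 nt later and held 5. The PP peak kept only the last 50 nt and held 1.
GATA6 region 4, hILO: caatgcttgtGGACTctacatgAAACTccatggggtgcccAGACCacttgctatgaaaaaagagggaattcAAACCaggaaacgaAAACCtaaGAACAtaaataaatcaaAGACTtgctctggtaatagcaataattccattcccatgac
GATA6 region 4, DE: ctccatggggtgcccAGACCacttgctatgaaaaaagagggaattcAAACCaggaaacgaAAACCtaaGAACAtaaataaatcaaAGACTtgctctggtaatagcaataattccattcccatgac
GATA6 region 4, PP: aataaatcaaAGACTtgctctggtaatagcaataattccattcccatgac
The motif count goes with length, since 59.7% of all 50 nt windows of coding transcripts hold at least 1 DRACH motif, 89.6% of 125 nt windows and 93.1% of 150 nt windows.

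The DE peak in exon 2 is shown because it was the only GATA6 peak inside the long first coding exon, and it held 4 DRACH motifs (capitals), of which 2 had the GGAC core. Of all 250 nt windows, 98.4% hold at least 1.
GATA6 region 3, DE: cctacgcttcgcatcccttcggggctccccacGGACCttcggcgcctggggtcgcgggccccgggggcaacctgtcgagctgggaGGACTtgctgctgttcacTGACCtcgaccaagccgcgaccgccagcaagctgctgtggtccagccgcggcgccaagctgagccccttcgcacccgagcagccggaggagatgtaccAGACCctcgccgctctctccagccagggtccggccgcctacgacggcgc

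In the 3′ UTR, a stretch of 625 nt (chr18:22200855-22201479) was covered in the same 4 lists and held 11 DRACH motifs. Its 3 motifs with the GGAC core lay close together, with the central A at 237, 263 and 269 nt after the stop codon, and are printed with 8 bases before and after each motif (motif in capitals). The windows of the last 2 of these motifs overlap.
GATA6 3′ UTR, first GGAC motif: tccggggcGGACCctgctcca
GATA6 3′ UTR, second GGAC motif: agaagccaGGACTaggacctg
GATA6 3′ UTR, last GGAC motif: caggactaGGACCtgggcctt
A motif is a description of the bases and does not show which A was methylated, because the peaks have no single-base resolution.

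**Figure D1:**
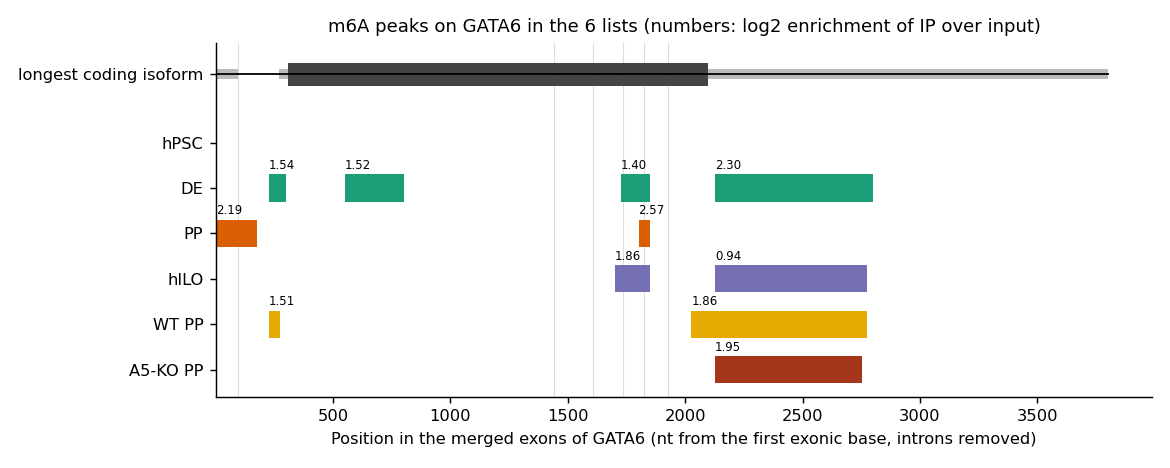
Position of the 11 GATA6 peaks along the merged exons (x axis, nt from the first exonic base, introns removed), with 1 row for each list and the log2 enrichment above each peak. The top row shows the longest coding isoform (dark, coding sequence; grey, UTRs), light vertical lines mark exon starts, hPSC has no peak, and the 3′ UTR peak recurs in 4 of the 6 lists.

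In region 5, which held most GATA6 reads in DE, the log2 enrichment (the authors' value for IP over input) was 2.30 ± 0.021 in DE, from 6303 input and 22238 IP reads. Errors after ± are counting errors from the listed reads of a peak, not spread between cultures. In hILO it was 0.94 ± 0.086, from 442 input and 761 IP reads. In WT PP it was 1.86 ± 0.18 from 131 input and 130 IP reads, and in A5-KO PP 1.95 ± 0.20 from 91 input and 109 IP reads. The DE value stood at the 82.4th percentile of its list, and the values of hILO, WT PP and A5-KO PP at the 13.4th, 19.5th and 19.1st percentiles. Values of batch 1 and batch 2 are not compared, since the median log2 enrichment of a list ranged from 1.53 to 1.74 in batch 1, whereas WT PP had 3.65 and A5-KO PP 4.31. How the lists were scaled is not given in the sources used here.

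In region 4 the log2 enrichment was 1.40 ± 0.032 in DE from 3464 input reads, 2.57 ± 0.21 in PP from 56 input reads and 1.86 ± 0.14 in hILO from 148 input reads. The order of the 3 stages was thus opposite to that of the input reads, and the smallest peak had the highest value. In region 3 the log2 enrichment was 1.52 ± 0.043, from 1363 input and 6127 IP reads. Region 2, before the start codon, had 1.54 ± 0.13 in DE from 163 input reads and 1.51 ± 0.21 in WT PP from 81 input reads. Region 1 had 2.19 ± 0.085 in PP, from 310 input and 3623 IP reads. The GATA6 peaks of WT PP and A5-KO PP were the least certain members, with adjusted p-values of the caller of 0.0185 and 0.00554 for WT PP and 0.00916 for A5-KO PP.

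The reads in GATA6 peaks were fewer after DE. Scaled to 1000000 input reads in all peaks of the list (RPM), the input was 896 in DE (95% exact Poisson interval 880 to 913). It was 52.4 in PP (interval 47.1 to 58.0) and 20.7 in hILO (interval 19.1 to 22.5). In batch 2, WT PP had 11.1 (9.69 to 12.7) and A5-KO PP 7.16 (5.76 to 8.79). The intervals of neighbouring populations within a batch did not overlap, but they cover counting error alone. The peaks covered 29.6% of the merged exons in DE, 5.92% in PP, 21.1% in both hILO and WT PP, and 16.5% in A5-KO PP, so that these sums come from different lengths. By IP reads, GATA6 stood at the 99.2nd percentile of genes with a peak in DE, the 81.5th in PP, the 35.4th in hILO, the 23.1st for WT PP and the 21.5th for A5-KO PP.

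A long noncoding gene with no symbol, ENSG00000266283, lies opposite the last exon of GATA6, and its peak shared 122 nt with the GATA6 3′ UTR peak in DE and in hILO. That antisense peak had 2113 input and 4230 IP reads in DE and 513 input and 1192 IP reads in hILO. It was also listed in PP, with 94 input and 229 IP reads, where GATA6 had no 3′ UTR peak. The aligner was run with a strand setting, but whether peak counting used strand is not given in the sources used here, so the reads of the 122 nt are uncertain for both genes. GATA6-AS1, a noncoding gene that runs in the opposite direction from the 5′ end of GATA6, had 4 peaks in DE, 3 in PP, 5 in WT PP, 3 in A5-KO PP and none in hPSC or hILO. Its input reads were 273 in DE, 826 in PP, 1582 for WT PP and 559 for A5-KO PP. One GATA6-AS1 peak, in DE, lay opposite 94 nt of the first GATA6 exon, and no GATA6-AS1 peak overlapped a GATA6 peak of its own list. The same 94 nt belonged to GATA6 region 1 in PP.

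GATA4 lies on the plus strand at chr8:11676959-11760002, and its 23 peaks fell into 6 regions. Region 1, at chr8:11676984-11700567 in DE alone, covered 3 upstream exons outside the longest coding isoform. Regions 2 and 3 covered exon junctions of the 5′ leader, region 2 in WT PP and A5-KO PP, and region 3 in PP, WT PP and A5-KO PP. Region 4 lay around the start codon in DE, hILO, WT PP and A5-KO PP. Region 5, at chr8:11750208-11756550 in PP alone, covered 29 nt of exon 4, the 88 nt of exon 5 and 58 nt of a longer exon annotated in other isoforms. Region 6 began upstream of the stop codon and reached the annotated 3′ end, and it was the only region listed in all 5 populations with a peak. By midpoint, 11 of the 23 peaks were in the 3′ UTR, 8 in the 5′ UTR, 1 in the coding sequence and 3 outside the longest coding isoform. For GATA6 the numbers were 4, 1, 4 and 2 of 11. No midpoint of either gene lay within 200 nt of the stop codon, because the peaks there were long and ran downstream.

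**Figure D2:**
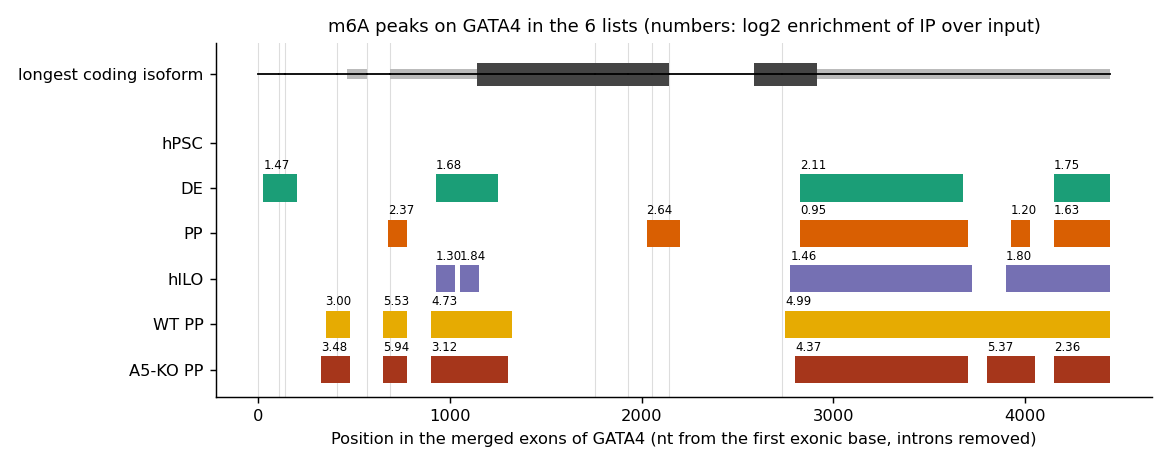
Position of the 23 GATA4 peaks along the merged exons (x axis, nt from the first exonic base, introns removed), with 1 row for each list and the log2 enrichment above each peak. The top row shows the longest coding isoform (dark, coding sequence; grey, UTRs), light vertical lines mark exon starts, and peaks over the stop codon and at the 3′ end appear in all 5 lists with a GATA4 peak, as a single peak in WT PP.

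Over the GATA4 stop codon, a stretch of 850 nt (chr8:11758385-11759234) was covered in all 5 lists and held 21 DRACH motifs, 7 of them with the GGAC core. The peaks began between 165 nt (WT PP) and 90 nt (DE and PP) before the end of the stop codon. In DE the log2 enrichment was 2.11 ± 0.024, from 4437 input and 16221 IP reads. In PP it was 0.95 ± 0.065 from 615 input and 2306 IP reads, and in hILO 1.46 ± 0.027 from 3923 input and 11377 IP reads. PP was thus the lowest of the 3 stages, at the 8.56th percentile of its list, against the 74.1st in DE and the 45.5th in hILO. In WT PP 1 peak of 1693 nt covered the whole region, with 4.99 ± 0.033 from 2098 input and 16747 IP reads. In A5-KO PP the region was split into 3 peaks, of which the one over the stop codon had 4.37 ± 0.056 from 817 input and 3724 IP reads.

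The last 293 nt of the GATA4 3′ UTR (chr8:11759710-11760002) were also covered in all 5 lists and held 8 DRACH motifs, none with the GGAC core. Their log2 enrichment was 1.75 ± 0.036 in DE, from 2282 input reads, and 1.63 ± 0.20 in PP, from 63 input reads. In hILO the 3′ end belonged to a peak of 543 nt with 1.80 ± 0.29 from 31 input reads. These 3 values differed by less than their counting errors. In A5-KO PP the 3′ end had 2.36 ± 0.078, from 750 input and 629 IP reads, and was the only member of either gene in A5-KO PP with fewer IP than input reads. A peak between the stop codon and the 3′ end had 1.20 ± 0.061 in PP from 678 input reads and 5.37 ± 0.045 in A5-KO PP from 1118 input reads.

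Around the GATA4 start codon (region 4), DE had 1 peak of 325 nt with a log2 enrichment of 1.68 ± 0.073, from 529 input and 1529 IP reads. hILO had 2 peaks of 100 nt there, with 1.30 ± 0.078 from 488 input reads and 1.84 ± 0.022 from 5214 input and 19747 IP reads. The second of these covered the start codon. WT PP had 4.73 ± 0.30 from 24 input and 262 IP reads, and A5-KO PP 3.12 ± 0.070 from 574 input and 1548 IP reads. PP had no peak there.

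In the 5′ leader upstream of this, region 3 had a log2 enrichment of 2.37 ± 0.079 in PP, from 390 input and 2142 IP reads. It had 5.53 ± 0.020 in WT PP from 5930 input and 38197 IP reads, and 5.94 ± 0.034 in A5-KO PP from 2042 input and 16619 IP reads. Region 3 thus held most of the GATA4 IP reads of WT PP, on 125 nt, and had the highest value of all members in both batch 2 lists. Region 2 had 3.00 ± 0.046 in WT PP from 1426 input reads and 3.48 ± 0.058 in A5-KO PP from 847 input reads. Region 1 had 1.47 ± 0.10 in DE, from 295 input and 640 IP reads. Region 5 had 2.64 ± 0.035 in PP, from 1963 input and 13697 IP reads, at the 90.8th percentile, and held most GATA4 reads of that list.

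Both genes had a peak over the same place in the coding sequence, in GATA4 region 5 and GATA6 region 4, which both span the whole of exon 5 and reach the end of exon 4. Exons 4 and 5 have equal lengths in both genes, 126 and 88 nt, and 75.4% and 75.0% of their bases were identical when aligned without gaps. Exon 5 had 3 DRACH motifs in GATA4 and 5 in GATA6, and 3 were at the same position in both. Exon 4 had 1 in GATA4 and 3 in GATA6, with 0 at the same position. GATA4 had this peak in PP alone, whereas GATA6 had it in DE, PP and hILO. In PP the GATA6 peak held only the last 22 nt of exon 5.

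The GATA4 reads varied less among populations than the GATA6 reads. The input in GATA4 peaks was 599 RPM in DE (95% exact Poisson interval 585 to 612), 531 in PP (interval 514 to 548) and 339 in hILO (interval 333 to 346). WT PP had 498 (488 to 508) and A5-KO PP 483 (471 to 496), and these 2 intervals overlapped. The IP reads of GATA4 stood between the 98.5th and 99.6th percentile of genes with a peak in all 5 lists. The reads were spread unevenly along the gene. In hILO the input was 52.1 reads per nt in the peak at the start codon and 0.0571 reads per nt in the peak at the 3′ end, a ratio of 913. For comparison, genes with at least 4 peaks assigned to that gene alone and input reads in each of them were ranked by the ratio between their densest and sparsest peak, 2042 genes in hILO and 1435 to 2180 in the other 4 lists. The median ratio in hILO was 17.0, and GATA4 was at the 98.8th percentile of this subset. The ratio was 840 in WT PP (88.4th percentile), 52.2 in PP (71.2nd), 18.0 in A5-KO PP (25.7th) and 4.78 in DE (22.9th). An enrichment from a sparse peak, such as that of WT PP at the start codon (0.0565 input reads per nt), therefore rests on far fewer reads than others of the same gene.

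To follow the peaks along differentiation, a peak counted as found in another list if that list covered more than 50% of its exonic bases. Of the PP peaks, 2 of 5 of GATA4 and 1 of 2 of GATA6 were found in DE, against 57.0% of all PP peaks. Of the hILO peaks, 2 of 4 of GATA4 and 0 of 2 of GATA6 were found in PP, against 45.6% of all. All 4 hILO peaks of GATA4 and both of GATA6 were found in DE, against 51.4% of all hILO peaks; with more than 50% of both peaks required, 2 of the 4 GATA4 peaks were. The start codon peak of GATA4 and the 3′ UTR peak of GATA6 were in DE and in hILO but not in PP. Of all DE peaks, 46.7% were found in PP and 56.0% in hILO. The share found in PP among DE peaks that recur in hILO was not computed, so how common this pattern is remains unknown. Between the batches, 4 of 5 PP peaks of GATA4 and 0 of 2 of GATA6 were found in WT PP, against 57.9% of all PP peaks, and 2 of 5 of GATA4 with more than 50% of both peaks required.

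From DE to PP, the log2 enrichment over the GATA4 stop codon was lower by 1.16 (difference -1.16, 95% counting interval -1.30 to -1.02). The difference at the GATA4 3′ end was -0.12 (-0.51 to 0.27), and 0.11 with count ratios centred on each list, so no direction is given. The difference in GATA6 region 4 was 1.16 (0.75 to 1.58). It set the 50 nt peak of PP against the 125 nt peak of DE. This pair does not count as shared with more than 50% of both peaks required. Of all shared peaks between these stages, 8.17% were lower by at least 1 and 7.37% higher by at least 1, so that both differences lay in the outer part of the range. On centred count ratios the stop codon difference was -0.81, below that mark.

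From DE to hILO, the GATA6 3′ UTR peak had a difference of -1.36 (-1.53 to -1.18), the only one of 6 shared member peaks past 1 in either direction. Of all shared peaks, 12.8% were lower and 3.71% higher by at least 1. The other 5 differences were -0.65 (-0.72 to -0.57) over the GATA4 stop codon, 0.06 (-0.52 to 0.63) at its 3′ end, -0.37 (-0.58 to -0.16) and 0.16 (0.01 to 0.31) around its start codon, and 0.46 (0.18 to 0.74) in GATA6 region 4. The median over all 16212 shared peaks was -0.23. On centred count ratios the difference was 0.97 in GATA6 region 4, -0.39 over the GATA4 stop codon and -1.10 in the GATA6 3′ UTR. From PP to hILO, GATA4 had a difference of 0.51 (0.37 to 0.65) over the stop codon and 0.18 (-0.51 to 0.87) at the 3′ end. Neither reached 1, a mark that 4.16% of all shared peaks passed upwards and 13.2% downwards. DE, PP and hILO are each used in 2 of these comparisons, and the 2 start codon differences from DE to hILO share 1 DE peak. The differences are thus not independent.

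The knockout comparison asked how the peaks of progenitors differ without ALKBH5. ALKBH5 itself had 4 peaks in WT PP, with 289 input and 836 IP reads, and 5 in A5-KO PP, with 1 input and 592 IP reads. Peaks were thus listed on the targeted transcript in both, which is no check of the label, since a small deletion or insertion need not remove the RNA. All 6 GATA4 peaks and the GATA6 peak of A5-KO PP were found in WT PP, against 46.8% of all A5-KO PP peaks, and 4 of 6 of GATA4 were with more than 50% of both peaks required. The GATA6 peak before the start codon was listed in WT PP and not in A5-KO PP, and 50.0% of all WT PP peaks were found in A5-KO PP. The difference in the GATA6 3′ UTR, A5-KO PP minus WT PP, was 0.09 (-0.44 to 0.62), from 91 and 131 input reads, and -0.14 with count ratios centred on each list, so no direction is given. Of the GATA4 peaks, 2 were lower by at least 1, with -2.63 (-2.79 to -2.46) at the 3′ end and -1.60 (-2.22 to -0.99) at the start codon, and none was higher by at least 1. Over all shared peaks 28.8% were lower and 38.2% higher by at least 1, so that 2 of 6 is close to the background. The 3′ end was set against the single long peak of WT PP, which also served 2 other A5-KO PP peaks, and the start codon peak had 24 input reads in WT PP.

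The other 4 GATA4 differences were smaller. The peak over the stop codon had -0.62 (-0.74 to -0.49). Region 2 had 0.48 (0.33 to 0.62), region 3 had 0.40 (0.33 to 0.48) and the peak in the middle of the 3′ UTR 0.38 (0.27 to 0.49) on the deposited scale, and all 3 changed sign to -0.14, -0.07 and -0.22 when count ratios centred on each list were used. No direction is given for them. On that scale the stop codon peak had -1.22, the start codon peak -2.37 and the 3′ end -3.66, so that 3 of 6 were lower by at least 1. Over all shared peaks 34.0% were lower and 28.7% higher by at least 1 on that scale, with a median of -0.29. The median difference over all shared peaks was 0.25 on the deposited scale, with quartiles of -1.33 and 2.35.

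**Figure D3:**
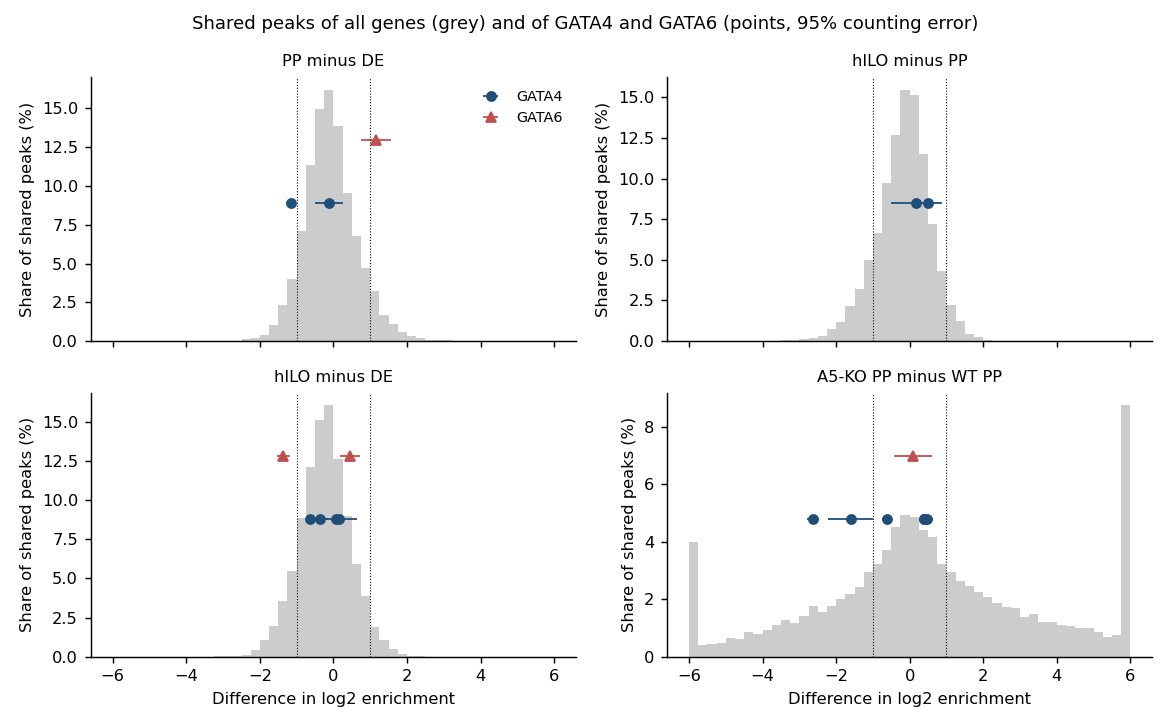
Difference in log2 enrichment at shared peaks (x axis) in 4 comparisons, with the share of all shared peaks in grey (y axis, %, differences beyond 6 placed in the outermost bars) and the GATA4 (circles) and GATA6 (triangles) peaks as points with 95% counting error at an arbitrary height. Dotted lines mark a difference of 1; the GATA4 stop codon peak lies at -1.16 for PP minus DE and the GATA6 3′ UTR peak at -1.36 for hILO minus DE.

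Over the union of its peaks, GATA4 had 50 DRACH motifs in 2743 nt (18.2 per kb), against 14 in the other 1700 nt of its exons (8.24 per kb), a ratio of 2.21. GATA6 had 24 in 1425 nt (16.8 per kb), against 28 in the other 2374 nt (11.8 per kb), a ratio of 1.43. On the opposite strand of the same bases, the ratios for DRACH were 1.64 in GATA4 and 1.01 in GATA6. Antisense genes with peaks of their own lie opposite parts of the GATA6 exons, so that strand is not a clean background there. For the GGAC core the ratio in GATA4 was 1.03 on the transcript strand and 0.964 on the opposite strand, and in GATA6 1.30 and 1.39. The longest transcripts of both genes were poor in DRACH, with 14.8 per kb in GATA4 (13.8th percentile) and 15.2 per kb in GATA6 (15.8th), against a median of 18.9 per kb over 19424 coding genes. Of the merged exons, 38.3% of GATA4 and 62.5% of GATA6 lay in no peak of any list. Peaks of 5 lists covered 25.7% of GATA4, and peaks of 4 lists covered 16.5% of GATA6, while no base of either was covered in 6.

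Among 22 related genes chosen for their role (other GATA factors, cofactors, antisense genes and endoderm and foregut factors), 5 had a peak in hPSC, 14 had one in DE and in PP, 13 in hILO, and 19 in each batch 2 list. Of all 27200 genes with a peak in some list, 59.7% had one in hPSC, 56.7% in DE, 50.6% for PP, 56.3% for hILO, 62.6% for WT PP and 81.5% for A5-KO PP, so that the counts of DE, PP, hILO and A5-KO PP are close to the background. GATA5, the nearest relative in the endoderm, had 1 peak in DE, 1 in PP, 2 in hILO and 3 each in WT PP and A5-KO PP, with 6 to 273 input reads. GATA1, the erythroid factor, had none. ZFPM1 had a peak in all 6 lists and ZFPM2 in 4 (DE, PP, WT PP and A5-KO PP); both encode FOG cofactors that bind the GATA zinc finger. Across the 6 lists, the gene whose IP RPM values were most like those of GATA4 was FOXA2, an endodermal pioneer factor (Euclidean distance on the log2 scale 1.38), followed by PLXNA2 (3.71) and CCDC92 (4.30), against a median of 17.13 over all genes. For GATA6 they were NBPF14 and NOTCH2NLB (both 1.48, from the same peaks, and both with near-identical copies that make their reads uncertain) and DPH6 (2.32), against a median of 11.65.

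The labelled populations were checked by marker genes, of which a peak shows only that the transcript was there. Of 4 pluripotent markers, 3 had a peak in hPSC and in DE, 1 in PP, WT PP and A5-KO PP, and 0 in hILO, with 852 input RPM in hPSC and 150 in DE. DPPA4 held most of these reads in hPSC (6657 input reads), whereas POU5F1 had 11 input reads in hPSC against 727 in DE, NANOG 121 against 360, and SOX2 had no peak in any list. Of the defining pluripotency factors, POU5F1 thus had 1 sparse peak in the hPSC list and SOX2 none. The paper, in contrast, reports m6A peaks of hPSC on OCT4 (POU5F1), SOX2 and NANOG. GATA4 and GATA6 had no peak in that list either, and the cause was not tested. All 4 definitive endoderm markers had a peak in DE, where their input was 9490 RPM against 14.1 in hPSC. All 4 also had a peak in WT PP (588 RPM) and A5-KO PP (417 RPM). All 5 pancreatic progenitor markers had a peak in PP, hILO, WT PP and A5-KO PP, 2 in hPSC and 1 in DE. Of 5 endocrine markers 4 had a peak in hILO and 1 in each other list. INS, GCG and SST had peaks in hILO alone, with 49368, 241 and 4588 input reads. The marker of the other lists was CHGA, whose reads did not peak in hILO. CHGA had 25 input reads in hILO, 14 in DE and 218 in hPSC, against 827 for PP, 653 for WT PP and 2105 for A5-KO PP. The longer batch 2 lists hold more genes of any kind, as the shares over all genes show, so that a count of markers separates the populations only in part. GATA4 and GATA6 are also expressed in the heart and liver lineages. Of 6 cardiac mesoderm markers, PP had a peak for 0, hPSC, DE and hILO for 1 each, WT PP for 5 and A5-KO PP for 4, with 0 to 88.0 input RPM. NKX2-5 had 0 and 1 input reads in WT PP and A5-KO PP, MYH6 0 and 969, TBX5 591 and 28, and HAND1 296 and 121. TNNT2 had 211 in WT PP and no peak in A5-KO PP. Of 4 hepatic markers, hPSC and PP had a peak for 0, DE for 1, hILO for 4, WT PP for 3 and A5-KO PP for 2, with 1590 input RPM in hILO, 824 in WT PP, 26.6 in A5-KO PP and 45.0 in DE. The hepatic reads of WT PP were almost all of TTR (15675 input reads, against 250 in A5-KO PP), whereas AFP had 0 input reads in WT PP against 88 for A5-KO PP, so the sums do not stand for the whole list. ALB had no peak outside hILO. Both intestinal markers, CDX2 and VIL1, had a peak in PP, hILO, WT PP and A5-KO PP and none in hPSC or DE, with 643 input RPM in hILO, 195 in WT PP, 117 in A5-KO PP and 49.4 in PP. CDX2 had 7644 input reads in hILO. Of 3 neural markers 1 or 2 had a peak in each list, with 123 to 1090 input RPM, and of 3 mesenchyme markers 1 to 3, with 17.5 to 267. The part of such cells in the GATA4 and GATA6 values was not tested.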

How the data were processed

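Libraries were grouped by the population and the IP or input label of their titles. Per the methods, fastp (trimming), HISAT2 (alignment to GRCh38) and exomePeak2 (peak calling) were run by the authors. The deposited files hold 1 list and 1 pair of read counts per population; how libraries were combined is not given in the sources used here. Per the file headers, each peak has deposited read counts of input and IP, a log2 enrichment and a p-value before and after adjustment. Counting errors take the counts as sums over libraries. PCR copies are not independent molecules, so errors and intervals cover counting error alone and are approximate. The methods name p below 1e-05, which 4 of the 34 member peaks did not meet; their largest adjusted p-value was 0.0185. Depth is known only as reads inside peaks, from 6987612 (PP) to 28463998 (hILO) input reads and from 30723097 (DE) to 79822815 (hPSC) IP reads per list.

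Here, deposited spans were reduced to the merged exons of GENCODE 44 (11 of 11 member peaks over several exons then had a length in whole steps of 25 nt, as the caller works, against 1 span). Overlaps were computed with bedtools 2.31.1, and the other values with Python 3.11.15, pandas 2.3.3 and numpy 2.4.6; overlaps were checked on simulated data. Counting errors used IP and input reads with 0.5 added. Count ratios used a pseudocount of 1 and were centred on the median of the list. A difference was counted from 1 on the log2 scale. UTRs and coding sequence refer to the isoform with the longest coding sequence, stop codon included. RPM are reads scaled to 1000000 reads in all peaks of a list. Likeness used log2(1 + IP RPM), and the 3 nearest genes were named. The members, gene lists and rules were chosen with earlier results of these data known. Of the 22 related genes, 1 (GATA4-AS1) was not found by symbol in the annotation. Sequences were read from the GRCh38 genome.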

Additional observations from a re-analysis of the deposited data

How the results depend on the processing

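No paired analysis was possible because every deposited value is 1 per population; leaving out each replicate was not run for that reason. Peak counts changed by more than 1.5 times for GATA6: at an IP/input ratio of at least 2 its count in hILO was 1, and at p below 1e-10 it was 1 in hILO and 0 for WT PP and for A5-KO PP. Smaller changes, by 1 peak each, were found at p below 1e-10 for GATA6 in DE (3) and for GATA4 in PP (4), hILO (3), WT PP (3) and A5-KO PP (5). GATA4 also had 4 in PP at a ratio of at least 2, 3 in hILO and WT PP with at least 50 input reads, and 3 in hILO with peaks less than 100 nt apart merged. With any overlap counted, 1 GATA6 hILO peak was found in PP. With more than 50% of both peaks required, 0 GATA6 peaks of PP were found in DE, 2 GATA4 peaks of hILO in DE and 2 GATA4 peaks of PP in WT PP. With centred count ratios at a pseudocount of 1 and of 5, the GATA4 stop codon differences were -0.81 and -0.79 (PP minus DE), -0.39 and -0.43 (hILO minus DE) and -1.22 and -1.15 (A5-KO PP minus WT PP), and for hILO minus PP 0.36 at a pseudocount of 5. The second start codon peak of GATA4 had 0.33 (hILO minus DE, pseudocount 1). GATA6 had 0.97 and 0.91 in region 4 and -1.10 and -1.14 in the 3′ UTR (hILO minus DE). For A5-KO PP minus WT PP, GATA4 had -0.14 and -0.07 in region 2, -0.07 and 0.00 in region 3, -2.37 at the start codon (pseudocount 1), -0.22 and -0.15 in the middle of the 3′ UTR and -3.66 and -3.58 at the 3′ end. A minimum of 50 input reads in both lists leaves no value for 3 of the 18 shared peaks. The cause of these shifts was not tested. Peaks with under 100 input reads limit the values of GATA6 in PP, WT PP and A5-KO PP and of GATA4 at the start codon in WT PP and at the 3′ end in PP and hILO.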
